A study of Mus musculus with 30 samples.

Results

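The genes described here are 38 mouse genes of autophagy and of the lysosome, found among the 57186 rows of the count table by matching each Ensembl identifier, without its version suffix, to a listed symbol. All 38 symbols matched, and all 38 passed the filter on low counts in both lines, Ctsf in NIH/3T3 only through its 5 h libraries. By role they are 19 autophagy genes (3 of initiation, 4 of nucleation, 4 of conjugation, 5 of the ATG8 family and 3 cargo receptors), 13 genes of lysosomal enzymes and their activator prosaposin, 3 genes of lysosomal membrane proteins and 3 of MiT/TFE transcription factors.

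RNA was sequenced from NIH/3T3, a mouse fibroblast line kept in DMEM with fetal bovine serum, and from CGR8, a mouse embryonic stem cell line kept in N2B27 medium with 2i and LIF. The 10 groups were each line at 0, 1, 2, 5 and 48 h in cycloheximide (CHX, an inhibitor of translation elongation) at 0.1 µg/mL, with 3 libraries lettered A, B and C per group. All groups share the genotype ROSA26 SLT knock-in, so no line without the knock-in entered a comparison, and the 0 h libraries are the controls. The labels do not say whether each line is 1 clone or whether the 3 libraries are separate cultures, so the p-values measure the spread between these libraries, which may be technical. The lines also differ in medium, which cannot be told apart from the line.

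Autophagy encloses cytoplasm in a double membrane and delivers it to the lysosome, where acid hydrolases degrade it. The ULK kinase complex starts the process, the beclin complex and WIPI proteins mark the growing membrane, and the ATG12, ATG5 and ATG16L1 conjugate helps attach proteins of the ATG8 family to lipid, where cargo receptors bind them. TFEB, TFE3 and MITF are transcription factors that bind E-box sequences in promoters of many lysosomal genes, and both the factors and autophagy itself are held in check by mTORC1 on the lysosome surface.

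Library totals ranged from 18216993 to 30503109 counts. The summed level of 4 stem cell markers was 0 to 0.419 CPM (a gene's count relative to the scaled total of its library) in NIH/3T3 and 3030 to 4210 CPM in CGR8, and that of 4 fibroblast markers was 4060 to 10200 CPM in NIH/3T3 and 0.455 to 0.976 CPM in CGR8. Of the 4 markers of leukocytes, which are rich in lysosomes, Cd68 carried the sum, at 0.427 to 1.84 CPM in NIH/3T3 and 5.64 to 12.2 CPM in CGR8, and it encodes a lysosomal glycoprotein itself. Ptprc, Csf1r and Adgre1 were at 0.267 CPM or less in every library, with Adgre1 at 0 in all, and the 4 summed to 0.481 to 2.01 CPM in NIH/3T3 and 5.68 to 12.2 CPM in CGR8. Of the 4 endoderm markers, Gata4 lay at 11.8 to 20.7 CPM in NIH/3T3, where Sox7 reached at most 0.0392 CPM and Gata6 and Sox17 were at 0, and the 4 summed to 11.8 to 20.7 CPM there and to 1.01 to 4.2 CPM in CGR8. Some libraries lay far from their replicates, and the SD of log2 differences from the group mean was 0.27 in NIH/3T3 1 h C, 0.226 in NIH/3T3 2 h A, 0.251 in CGR8 2 h A, 0.222 in CGR8 5 h A, 0.216 in CGR8 5 h C and 0.212 in CGR8 0 h B, against 0.079 in the closest library. In bulk RNA, fewer cells of a type and less RNA per cell cannot be told apart.

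Promoter windows from 250 bases before to 50 after the RefSeq start site (GRCm38.p6) were found for 33 of the 38 genes. They were searched on both strands for CACGTG, the E-box core, and for GTCACGTG, which contains that core and therefore overlaps it. CACGTG was present for 8 of 12 lysosomal enzymes (66.7%), 2 of 15 autophagy genes (13.3%) and 2 of 6 of the membrane proteins and factors (33.3%), and for 8.09% of 27025 genes with a window. The longer GTCACGTG was present for 5 of 12 enzymes (41.7%), 1 of 15 autophagy genes (6.67%) and 2 of 6 others (33.3%), and for 2.55% of all genes. These are matches of letters and not measured binding. Other matches, among them those of Ctsa, Ctsl and Atg5, are not shown, and the second of Ctsa starts 5 bases after the start site. The windows below are examples of the matches in each class, each written 5′ to 3′ along the gene with the motif in capitals.
Ctsd: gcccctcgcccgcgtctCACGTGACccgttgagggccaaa
Gla: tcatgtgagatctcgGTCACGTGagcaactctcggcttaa
Glb1: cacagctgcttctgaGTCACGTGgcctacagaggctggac
Naglu: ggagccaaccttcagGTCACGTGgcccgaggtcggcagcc
Gaa: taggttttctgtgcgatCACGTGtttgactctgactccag
Ctsf: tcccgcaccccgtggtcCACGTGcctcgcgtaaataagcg
Lamp1: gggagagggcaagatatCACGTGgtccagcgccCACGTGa
Mcoln1: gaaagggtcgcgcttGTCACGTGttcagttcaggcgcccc
Atg7: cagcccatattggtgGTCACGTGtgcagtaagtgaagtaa
Their positions in GRCm38.p6 are Ctsd chr7:142387903-142387942 (minus strand), Gla chrX:134601177-134601216 (minus strand), Glb1 chr9:114401013-114401052 (plus strand), Naglu chr11:101070004-101070043 (plus strand), Gaa chr11:119267806-119267845 (plus strand), Ctsf chr19:4855069-4855108 (plus strand), Lamp1 chr8:13159083-13159122 (plus strand), Mcoln1 chr8:3500431-3500470 (plus strand) and Atg7 chr6:114670947-114670986 (plus strand), and all lie upstream of the start site. Lamp1, a major glycoprotein of the lysosomal membrane, had 4 matches in its window, and its shown stretch holds the first 2 of them. Atg7, the E1-like enzyme of ATG8 and ATG12 conjugation, was the only one of the 15 autophagy genes with a window to hold the 8-letter motif, and Atg12, Atg16l1, Becn1 and Map1lc3a had no window.

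**Figure D1:**
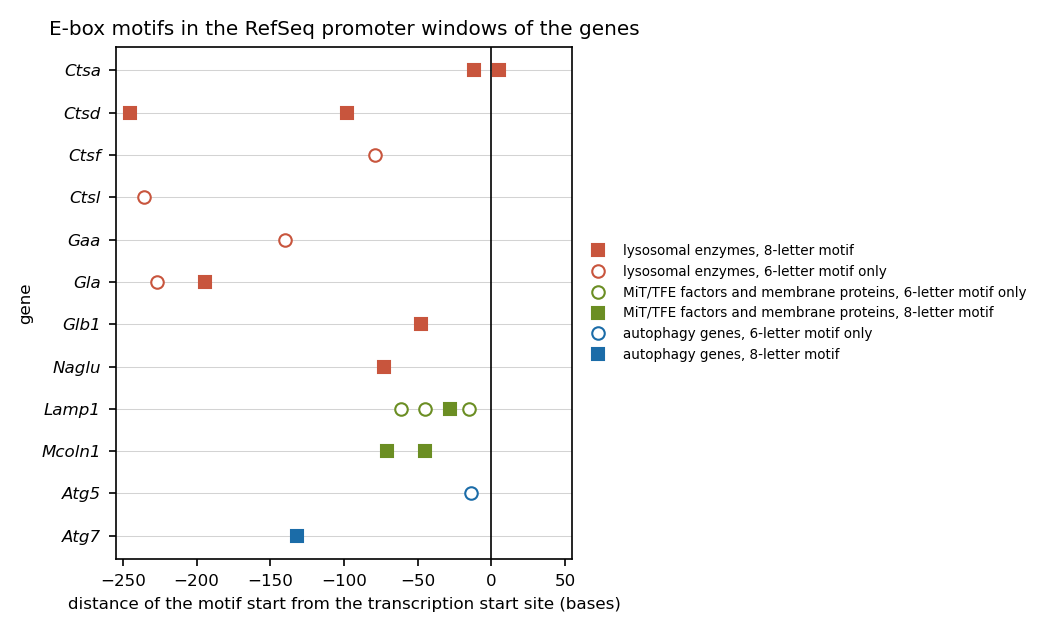
Distance in bases of each CACGTG match from the transcription start site (horizontal axis) for the 12 genes with a match (vertical axis). Filled squares mark the longer GTCACGTG motif, open circles mark CACGTG alone, and colour gives the class; 8 of the 12 genes are lysosomal enzymes.

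Before CHX most of these genes differed in level between the 2 lines, as did most of all genes tested. CGR8 at 0 h had 13 of the 38 genes higher and 20 lower than NIH/3T3 at 0 h at an adjusted p under 0.05 in edgeR's quasi-likelihood test, the rule for every call below. Over all genes tested the shares were 42.8% and 36.3%. Of the 13 lysosomal enzymes 1 was higher and 10 were lower in CGR8 (median log2 difference -1.92), of the 19 autophagy genes 7 were higher and 9 lower (median -0.22), and all 3 MiT/TFE genes were higher (median 2.53), against a median of 0.15 over all genes.

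Per kilobase of transcript, the highest levels at 0 h in NIH/3T3 were those of the cathepsin gene Ctsl (278 CPM per kb), Psap (246) and the cargo receptor gene Sqstm1 (232). In CGR8 they were those of Lamp1 (250 CPM per kb), Sqstm1 (88.4) and the ATG8 family gene Gabarapl2 (80.2). The hydrolase gene Ctsl thus led in the fibroblast line but ranked 18 of 38 in CGR8 by the same measure. Length was the median over a gene's principal annotated transcripts. For Ctsl it was 4070 bases over 2 transcripts, and its rank depends on that choice. The lowest was Ctsf in NIH/3T3 (0.0583 CPM per kb) and Ulk2 in CGR8 (0.146), and no test was made between genes.

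The 2 ULK kinase genes differed between the lines in opposite directions. Ulk1, the main kinase that starts autophagy, lay at 24.1, 23.3 and 24.4 CPM in NIH/3T3 libraries A, B and C at 0 h and at 316, 275 and 301 CPM in CGR8. Its paralogue Ulk2 lay at 33.3, 31.7 and 29.1 CPM in NIH/3T3 and at 0.819, 0.799 and 0.9 CPM in CGR8. CGR8 was therefore high for Ulk1 and low for Ulk2, with no overlap of the lines for either. The log2 difference of CGR8 over NIH/3T3 was 3.63 (SE 0.15, adjusted p = 1.26e-18) for Ulk1 and -5.22 (SE 0.20, adjusted p = 8.76e-20) for Ulk2. Wipi1, which encodes a phosphoinositide-binding protein of the forming autophagosome, was at 71.5, 67.6 and 72.4 CPM in NIH/3T3 and 3.37, 3.55 and 3.15 CPM in CGR8. Naglu, the lysosomal N-acetylglucosaminidase, was at 33.1, 33.5 and 38.3 CPM in NIH/3T3 and 0.409, 0.479 and 0.532 CPM in CGR8. Both were lower in every CGR8 library, with log2 differences of -4.39 (SE 0.14, adjusted p = 3.67e-21) and -6.21 (SE 0.20, adjusted p = 2.39e-21). Becn1, the scaffold of the beclin lipid kinase complex, was also lower in CGR8, with a log2 difference of -1.11 (SE 0.08, adjusted p = 4.31e-13).

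After CHX, the number of the 38 genes called grew from 1 h to 5 h in each line, as did the share of all genes tested. In NIH/3T3, 1 of the 38 was higher and 0 lower at 1 h (0.653% and 0.0789% of all genes tested), 7 were higher and 12 lower at 2 h (16.1% and 18.9%), 8 higher and 19 lower at 5 h (24% and 27.1%), and 15 higher and 10 lower at 48 h (26.7% and 25.6%). In CGR8, 0 were called at 1 h (0.144% and 0.126%), 3 were higher and 3 lower at 2 h (8.97% and 11%), 6 higher and 13 lower at 5 h (24.9% and 27.2%), and 0 higher and 11 lower at 48 h (12.2% and 15.6%). From 5 h to 48 h, 21 of the 38 rose and 11 fell in NIH/3T3 (34.1% and 31.4%), and 11 rose and 10 fell in CGR8 (28.9% and 28.6%). With Ctsf left out in NIH/3T3, 6 were higher and 12 lower at 2 h, 7 and 19 at 5 h, and 15 and 9 at 48 h. From 5 h to 48 h, 21 then rose and 10 fell. The time points of a line share its 0 h libraries, and the comparison of 48 h with 5 h shares libraries with both others, so their values are given side by side and not as separate evidence.

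In CGR8 at 1 h, 4 of the 38 genes were below an unadjusted p of 0.05 in edgeR, DESeq2 called 0 and limma's voom with sample weights called 3. The single call at 1 h in NIH/3T3, Atg12, was lost in 3 of 14 alternatives (adjusted p 0.124 to 0.37), namely with the compared groups only and without NIH/3T3 0 h A or C. At that time DESeq2 called 1 gene higher and 1 lower, and voom called 2 higher and 7 lower. The shares of all genes called by DESeq2 and by voom are not given here, so their counts have no background beside them. The 6 calls in CGR8 at 2 h became 3 without CGR8 0 h A, 3 without CGR8 0 h C, 2 without CGR8 2 h C and 9 without CGR8 2 h A or B. The 11 calls in CGR8 at 48 h became 7 without CGR8 0 h B. They were all lower in edgeR, whereas DESeq2 called 1 gene higher and 10 lower and voom 4 higher and 17 lower. Scaling by library size alone changed the split in CGR8 at 5 h from 6 higher and 13 lower to 4 and 15, where it moved the median of all genes by -0.10. Of all genes called there, the share that was higher went from 47.9% to 39.7%.

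**Figure D2:**
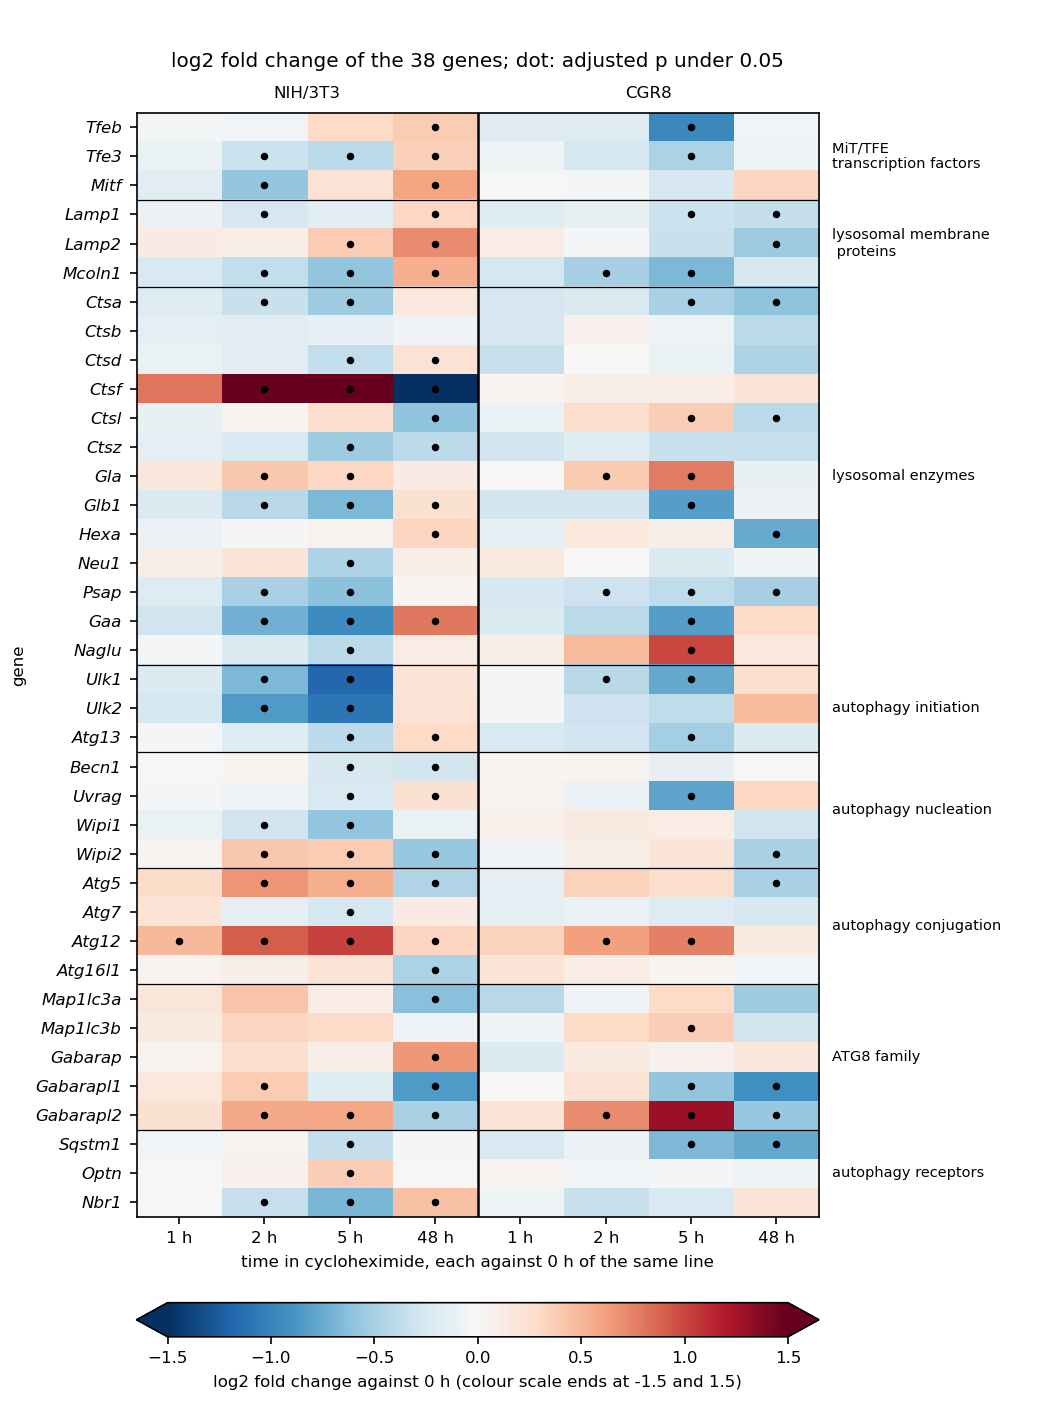
Each cell gives the log2 fold change of 1 of the 38 genes (rows, by role) at 1, 2, 5 or 48 h against 0 h of the same line (columns), red for higher and blue for lower, on a colour scale ending at -1.5 and 1.5. Dots mark an adjusted p under 0.05. More genes carry dots at 5 h than at 1 h, as was also so over all genes tested. In CGR8 at 48 h all 11 dots are on lower genes, where 12.2% of all genes tested were higher and 15.6% lower.

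The 3 initiation genes were all lower at 5 h in NIH/3T3 (median log2 fold change -1.08), where 27.1% of all genes tested were lower. Ulk1 lay at 9.86, 10.5 and 10.7 CPM at 5 h and 28.3, 27.5 and 27.8 CPM at 48 h, which are below and above all 3 of its 0 h libraries. Its fall at 5 h was a log2 fold change of -1.17, with an SE of 0.16 and an adjusted p of 2.51e-05. The rise from 5 h to 48 h was a log2 fold change of 1.36, with an SE of 0.16 and an adjusted p of 2.13e-06. Already at 2 h its libraries held 14.6, 15.5 and 14.1 CPM, and at 1 h 24, 24.1 and 12.9 CPM, where library C alone was low. Ulk2 went the same way, from 33.3, 31.7 and 29.1 CPM at 0 h to 13.2, 15.3 and 14.8 CPM at 5 h (log2 fold change -1.08, SE 0.12, adjusted p = 3.6e-06) and 38.2, 36.9 and 36.1 CPM at 48 h. Neither gene's 48 h libraries differed from 0 h past the threshold, with log2 fold changes of 0.19 (SE 0.16, adjusted p = 0.32) and 0.21 (SE 0.12, adjusted p = 0.139).

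In CGR8, Ulk1 lay at 217, 266 and 196 CPM at 2 h, 168, 181 and 195 CPM at 5 h and 358, 348 and 355 CPM at 48 h. All 3 libraries at 5 h were below all 3 at 0 h (log2 fold change -0.77, SE 0.12, adjusted p = 7.96e-05), and from 5 h to 48 h it rose (log2 fold change 1.01, SE 0.12, adjusted p = 4.93e-06). The fall at 5 h was not shown to differ between the lines, with an interaction of 0.50 (SE 0.20, adjusted p = 0.105). Atg13, a regulatory subunit of the ULK complex, fell at 5 h in both lines, with log2 fold changes of -0.39 (SE 0.10, adjusted p = 0.00401) in NIH/3T3 and -0.52 (SE 0.11, adjusted p = 0.000844) in CGR8. At 48 h Atg13 was higher in NIH/3T3, at 53.4, 53.9 and 49 against 40.6, 41 and 43.3 CPM (log2 fold change 0.29, SE 0.10, adjusted p = 0.0198). The call was lost in 5 of 14 alternatives (adjusted p 0.053 to 0.0729), namely without a filter and without NIH/3T3 0 h A or B or NIH/3T3 48 h A or B.

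**Figure D3:**
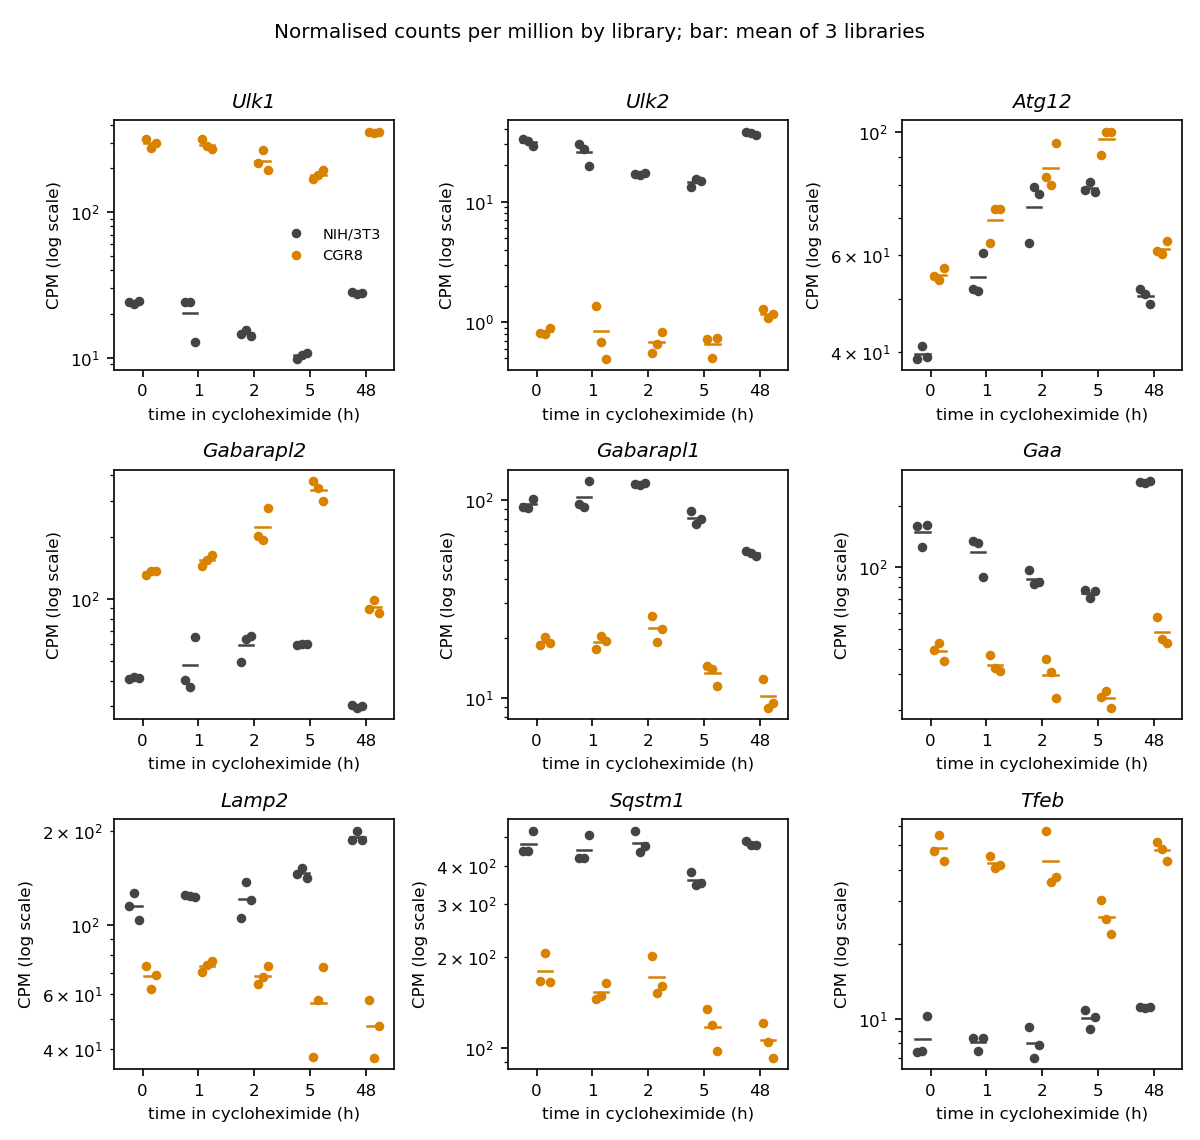
Scaled CPM on a logarithmic axis against hours in CHX for 9 of the genes, with 1 point per library, a bar at the mean of 3 libraries, NIH/3T3 in grey and CGR8 in orange. Ulk1 falls to 5 h and is back at 48 h in both lines, Gabarapl2 and Atg12 rise to 5 h, and Lamp2 rises in NIH/3T3 and falls in CGR8.

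Of the 4 nucleation genes, 3 fell and 1 rose by 5 h in NIH/3T3, and 1 fell in CGR8. Over all genes tested at 5 h, 27.1% fell and 24% rose in NIH/3T3, and 27.2% fell in CGR8. Wipi1 in NIH/3T3 lay at 46.1, 44.2 and 47.2 CPM at 5 h against 71.5, 67.6 and 72.4 CPM at 0 h (log2 fold change -0.59, SE 0.09, adjusted p = 5.05e-05), with no overlap, and at 72.6, 68.9 and 59.6 CPM at 48 h. Uvrag, a beclin partner, was lower in CGR8 at 5 h, with 15.1, 15 and 13.1 against 22, 25.4 and 24.4 CPM (log2 fold change -0.79, SE 0.13, adjusted p = 0.000142). In NIH/3T3 its log2 fold change at 5 h was -0.23 (SE 0.09, adjusted p = 0.0485). That call was lost in 10 of 14 alternatives (adjusted p 0.0554 to 0.173), namely with RLE factors, with library size alone, without a filter, with a minimum mean of 5 CPM and without NIH/3T3 0 h A, B or C or NIH/3T3 5 h A, B or C. Wipi2, the paralogue that recruits ATG16L1, went the other way: in NIH/3T3 it lay at 102, 112 and 116 CPM at 0 h, 143, 142 and 134 CPM at 5 h and 78.7, 72.9 and 73.7 CPM at 48 h. It was thus above the controls at 5 h (log2 fold change 0.38, SE 0.09, adjusted p = 0.00254) and below them at 48 h (log2 fold change -0.57, SE 0.09, adjusted p = 8.72e-05). It was also lower at 48 h in CGR8, with 81.8, 85.1 and 82.5 against 118, 119 and 109 CPM (log2 fold change -0.48, SE 0.09, adjusted p = 0.000625). Becn1 had log2 fold changes in NIH/3T3 of -0.24 (SE 0.09, adjusted p = 0.0257) at 5 h and -0.28 (SE 0.09, adjusted p = 0.0126) at 48 h. The call at 5 h was lost in 5 of 14 alternatives (adjusted p 0.0556 to 0.12), namely without a filter and without NIH/3T3 0 h B or C or NIH/3T3 5 h A or B. The call at 48 h was lost in 2 of 14 alternatives (adjusted p 0.0529 to 0.0575), namely without a filter and without NIH/3T3 48 h B.

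Among the conjugation genes, Atg12 was called at every time in NIH/3T3. It encodes the ubiquitin-like protein joined to ATG5. In NIH/3T3 it lay at 39, 41 and 39.3 CPM at 0 h, 52, 51.6 and 60.4 at 1 h, 62.9, 79.4 and 77.3 at 2 h, 78.6, 81.2 and 77.8 at 5 h and 52.1, 51 and 48.8 at 48 h. Each treated group lay above all 3 control libraries, highest at 2 and 5 h. The log2 fold changes were 0.49 (SE 0.09, adjusted p = 0.0172) at 1 h, 0.91 (SE 0.09, adjusted p = 4.69e-06) at 2 h, 1.03 (SE 0.09, adjusted p = 4.75e-07) at 5 h and 0.32 (SE 0.09, adjusted p = 0.00918) at 48 h. In CGR8 the libraries lay at 55, 54 and 56.7 CPM at 0 h, 82.8, 80.1 and 95.2 at 2 h and 90.7, 100 and 99.7 at 5 h (log2 fold change 0.76, SE 0.10, adjusted p = 1.43e-05). All CGR8 libraries at 2 and 5 h were above the controls, and the interaction at 5 h was -0.18 (SE 0.13, adjusted p = 0.391).

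Atg5 rose at 5 h in NIH/3T3, to 59.8, 62.7 and 57.3 from 39.2, 44.5 and 41.9 CPM (log2 fold change 0.55, SE 0.14, adjusted p = 0.00436), and lay below the controls at 48 h, at 31.4, 31.6 and 30.9 CPM (log2 fold change -0.45, SE 0.15, adjusted p = 0.0158). The latter call was lost in 1 of 14 alternatives (adjusted p = 0.0575), namely without NIH/3T3 0 h B. It was also lower at 48 h in CGR8, at 35, 39.1 and 40.2 against 47.8, 62.8 and 49 CPM (log2 fold change -0.49, SE 0.15, adjusted p = 0.0184). That call was lost without CGR8 0 h B, at an adjusted p of 0.111, and without CGR8 48 h A, at 0.0766. Atg16l1, which directs the conjugate to the membrane, fell at 48 h in NIH/3T3, to 30.1, 27.4 and 25.6 from 36.8, 36.7 and 40.1 CPM (log2 fold change -0.48, SE 0.10, adjusted p = 0.00113). In CGR8 its log2 fold change at 48 h was -0.04 (SE 0.14, adjusted p = 0.873), and the interaction missed the threshold at 0.43 (SE 0.18, adjusted p = 0.0852). Atg7 at 5 h in NIH/3T3 had a log2 fold change of -0.26 (SE 0.11, adjusted p = 0.0494). That call was lost in 10 of 14 alternatives (adjusted p 0.0525 to 0.237), namely with RLE factors, with DESeq2, without a filter, with the replicate block and without NIH/3T3 0 h A, B or C or NIH/3T3 5 h A, B or C.

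Of the 5 genes of the ATG8 family, 1 was higher at 5 h in NIH/3T3, and 2 were higher and 1 lower at 5 h in CGR8. In NIH/3T3 at 48 h, 1 was higher and 3 were lower, and in CGR8 at 48 h, 0 were higher and 2 lower. Over all genes tested, the shares higher and lower at 5 h were 24% and 27.1% in NIH/3T3 and 24.9% and 27.2% in CGR8. At 48 h they were 26.7% and 25.6% in NIH/3T3 and 12.2% and 15.6% in CGR8. Gabarapl2 had the largest rise at 5 h in CGR8: its libraries lay at 130, 137 and 137 CPM at 0 h, 145, 154 and 164 at 1 h, 203, 194 and 276 at 2 h, 374, 346 and 300 at 5 h and 89.4, 99.2 and 85.4 at 48 h. The 5 h libraries were all above, and the 48 h libraries all below, those of 0 h (log2 fold change 1.28, SE 0.12, adjusted p = 1.31e-06, then log2 fold change -0.57, SE 0.12, adjusted p = 0.00226). In NIH/3T3 they lay at 40.6, 41.8 and 41.2 CPM at 0 h, 59.6, 60.3 and 60.1 at 5 h and 30.4, 29.4 and 30.2 at 48 h. Again the 5 h libraries were above and the 48 h libraries below the controls (log2 fold change 0.58, SE 0.16, adjusted p = 0.00682, then log2 fold change -0.49, SE 0.16, adjusted p = 0.0197). The call at 48 h was lost in 2 of 14 alternatives (adjusted p 0.0501 to 0.0564), namely without NIH/3T3 0 h C or NIH/3T3 48 h B. The difference between the lines at 5 h was 0.79 (SE 0.21, adjusted p = 0.0117). That call was lost in 2 of 20 alternatives (adjusted p 0.0835 to 0.148), namely without CGR8 5 h A or B.

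Gabarapl2 has 3 near copies elsewhere in the annotation (over at least 300 bases at 95% identity or more) whose summed level was 0.118 to 1.24 CPM in NIH/3T3 and 1.61 to 7.19 CPM in CGR8. Map1lc3b, the gene of LC3B, has 4, which summed to 1.53 to 3.91 and 3.94 to 9.63 CPM. How the counting split reads among them is not given in the sources used here. By Pearson correlation of log2(CPM + 1) over the 15 libraries of a line, the genes most like Gabarapl2 were Rpl5 (r = 0.985), Glrx3 (0.984) and Spcs1 (0.984) in NIH/3T3 and Aurkc (0.992), Coq2 (0.99) and Fkbp3 (0.989) in CGR8, given as a description over libraries that share their time points.

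Gabarapl1, another member that binds cargo receptors, fell at 48 h in both lines. It lay at 92.5, 91.3 and 102 CPM at 0 h and 55.5, 53.9 and 52.1 CPM at 48 h in NIH/3T3 (log2 fold change -0.85, SE 0.11, adjusted p = 6.11e-06). In CGR8 it lay at 18.5, 20.2 and 19 CPM at 0 h and 12.5, 8.85 and 9.4 CPM at 48 h (log2 fold change -0.92, SE 0.14, adjusted p = 0.000206). Already at 5 h it was lower in CGR8 (log2 fold change -0.59, SE 0.14, adjusted p = 0.00269). The 0 h and 48 h groups did not overlap in either line, and the interaction at 48 h was -0.09 (SE 0.18, adjusted p = 0.832). Gabarap rose at 48 h in NIH/3T3, to 271, 255 and 250 from 170, 150 and 165 CPM (log2 fold change 0.65, SE 0.14, adjusted p = 0.00115), opposite to Gabarapl1. In CGR8 Gabarap was at 75.4, 69.4 and 58 CPM at 48 h and 47.1, 75.5 and 56.1 CPM at 0 h, which overlap (log2 fold change 0.17, SE 0.19, adjusted p = 0.541). Map1lc3a, the gene of LC3A, fell at 48 h in NIH/3T3, to 18.1, 19.4 and 17.6 from 26.9, 29 and 27.7 CPM (log2 fold change -0.63, SE 0.17, adjusted p = 0.00594). Map1lc3b did not pass the test against 0 h at any time in NIH/3T3, with log2 fold changes of 0.13 to 0.32 at 1 to 5 h and -0.05 at 48 h. In CGR8 at 5 h it had a log2 fold change of 0.37 (SE 0.13, adjusted p = 0.0286), a call lost in 6 of 14 alternatives (adjusted p 0.0594 to 0.121), namely with library size alone, with the compared groups only and without CGR8 0 h A or C or CGR8 5 h A or B.

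The 3 cargo receptors differed from each other. Sqstm1, which encodes p62 and links ubiquitinated cargo to ATG8 proteins, lay in CGR8 at 167, 207 and 166 CPM at 0 h, 135, 119 and 97.9 at 5 h and 121, 105 and 93.1 at 48 h. It was below all control libraries at both times (log2 fold change -0.67, SE 0.14, adjusted p = 0.000803 at 5 h, and log2 fold change -0.77, SE 0.14, adjusted p = 0.000631 at 48 h). In NIH/3T3 it lay at 448, 448 and 524 CPM at 0 h, 383, 346 and 353 at 5 h and 486, 470 and 471 at 48 h. There it was low at 5 h (log2 fold change -0.36, SE 0.10, adjusted p = 0.00574) and among the controls at 48 h (log2 fold change -0.02, SE 0.10, adjusted p = 0.87). The call at 5 h was lost in 1 of 14 alternatives (adjusted p = 0.054), namely without NIH/3T3 0 h C. Nbr1, a second ubiquitin-binding receptor, went from 114, 107 and 106 CPM at 0 h to 64.4, 64.8 and 69.3 at 5 h and 159, 146 and 150 at 48 h in NIH/3T3. It was below all controls at 5 h (log2 fold change -0.69, SE 0.10, adjusted p = 3.14e-05) and above all of them at 48 h (log2 fold change 0.44, SE 0.10, adjusted p = 0.00123). Optn, a receptor with a role in mitophagy, had a log2 fold change of 0.36 (SE 0.12, adjusted p = 0.0197) at 5 h in NIH/3T3. That call was lost in 2 of 14 alternatives (adjusted p 0.0638 to 0.0877), namely without NIH/3T3 0 h A or NIH/3T3 5 h A.

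Among the lysosomal enzymes, 2 were higher and 8 lower at 5 h in NIH/3T3, and 4 were higher and 3 lower at 48 h. Ctsf, at very few counts, is 1 of the 2 and 1 of the 3, and over the other 12 enzymes 1 was higher and 8 lower at 5 h and 4 were higher and 2 lower at 48 h. Over all genes tested in NIH/3T3, 24% were higher and 27.1% lower at 5 h. At 48 h the shares were 26.7% and 25.6%, and the enzyme counts at that time lie near them. Gaa, the acid alpha-glucosidase that breaks down glycogen, lay at 158, 125 and 160 CPM at 0 h, 96.5, 82.9 and 84.6 at 2 h, 77.6, 71.1 and 76.6 at 5 h and 261, 258 and 263 at 48 h. Its 5 h libraries were below and its 48 h libraries above every control (log2 fold change -0.94, SE 0.13, adjusted p = 2.25e-05 at 5 h, and log2 fold change 0.79, SE 0.13, adjusted p = 8.84e-05 at 48 h). From 5 h to 48 h it rose with a log2 fold change of 1.73, with an SE of 0.13 and an adjusted p of 1.96e-08. In CGR8 Gaa lay at 39.2, 42.8 and 35 CPM at 0 h, 23.2, 24.9 and 20.5 at 5 h and 57.3, 44.6 and 42.5 at 48 h. It was again low at 5 h (log2 fold change -0.82, SE 0.16, adjusted p = 0.000451), while the groups at 0 and 48 h overlapped (log2 fold change 0.29, SE 0.16, adjusted p = 0.173).

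The other enzymes that fell at 5 h in NIH/3T3 were Glb1 (the beta-galactosidase), Psap (the precursor of sphingolipid activators), Ctsa, Ctsz, Neu1, Naglu and Ctsd, with log2 fold changes from -0.67 for Glb1 to -0.37 for Ctsd. Glb1 also fell at 5 h in CGR8, from 70.5, 87 and 77.7 to 49.4, 48.3 and 40.0 CPM (log2 fold change -0.83, SE 0.14, adjusted p = 0.000208). Psap lay at 674, 601 and 688 CPM at 0 h and 421, 412 and 419 at 5 h in NIH/3T3 (log2 fold change -0.61, SE 0.08, adjusted p = 1.59e-05), and at 704, 682 and 656 CPM at 48 h, where it overlapped the controls. Gla, the alpha-galactosidase, moved the opposite way. At 5 h its log2 fold change in NIH/3T3 was 0.32 (SE 0.11, adjusted p = 0.0267), and in CGR8 it rose from 19, 23.6 and 18.9 to 38.1, 38.7 and 32.8 CPM (log2 fold change 0.78, SE 0.12, adjusted p = 6.64e-05). The NIH/3T3 call for Gla was lost in 4 of 14 alternatives (adjusted p 0.0603 to 0.102), namely without NIH/3T3 0 h A or C or NIH/3T3 5 h A or B. At 48 h in NIH/3T3 the calls of higher Ctsd (0.21) and Glb1 (0.23) were weak. The Ctsd call was lost in 7 of 14 alternatives (adjusted p 0.0588 to 0.189), namely with RLE factors, without a filter and without NIH/3T3 0 h A or B or NIH/3T3 48 h A, B or C. The Glb1 call was lost in 4 of 14 alternatives (adjusted p 0.0822 to 0.16), namely without a filter and without NIH/3T3 0 h B or NIH/3T3 48 h A or C. Ctsb, a cysteine cathepsin, was called at no time in either line, with its lowest adjusted p, 0.0559, at 48 h in CGR8 (log2 fold change -0.41).

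Ctsl, another cysteine cathepsin, lay in NIH/3T3 at 1120, 1130 and 1140 CPM at 0 h, 1410, 1310 and 1250 at 5 h and 760, 753 and 766 at 48 h. It was lower at 48 h than in any control library (log2 fold change -0.60, SE 0.16, adjusted p = 0.0042). At 2 h it lay at 712, 1310 and 1360 CPM, where library A, 1 of those far from its replicates, was low and B and C were high. In CGR8 Ctsl had log2 fold changes of 0.36 (SE 0.14, adjusted p = 0.0384) at 5 h and -0.41 (SE 0.14, adjusted p = 0.0405) at 48 h. The 5 h call was lost in 6 of 14 alternatives (adjusted p 0.0562 to 0.15), namely with library size alone, without a filter and without CGR8 0 h A or C or CGR8 5 h A or B. The 48 h call was lost in 5 of 14 alternatives (adjusted p 0.0543 to 0.189), namely with RLE factors and without CGR8 0 h B or C or CGR8 48 h B or C. Hexa, the alpha subunit of beta-hexosaminidase, fell in CGR8 at 48 h to 29.9, 19.5 and 17.5 from 33.5, 41.6 and 36.7 CPM (log2 fold change -0.75, SE 0.17, adjusted p = 0.00434). In NIH/3T3 it rose to 234, 243 and 243 from 189, 185 and 192 CPM (log2 fold change 0.32, SE 0.09, adjusted p = 0.00619). The groups were apart in both lines. Ctsa, the protective protein of lysosomal galactosidase and neuraminidase, also fell at 48 h in CGR8, to 84.7, 65.3 and 59 from 94.1, 119 and 101 CPM (log2 fold change -0.60, SE 0.15, adjusted p = 0.00767).

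Ctsf and Naglu changed at low counts. Ctsf, a cathepsin, had 8 counts over the 3 NIH/3T3 libraries before CHX, 22 after 2 h, 52 after 5 h and 0 after 48 h, and passed the low-count filter only through its 5 h libraries. Its level at 5 h was 0.784, 0.587 and 0.868 CPM. Those libraries let the gene into the test, and no library at 0 h or 48 h had more than 3 counts, so no fold is given for Ctsf in NIH/3T3. In CGR8 Ctsf lay between 6.42 and 9.69 CPM in all 15 libraries. Naglu in CGR8 lay at 1.14, 1.32 and 0.546 CPM at 5 h against 0.409, 0.479 and 0.532 CPM at 0 h (log2 fold change 1.00, SE 0.33, adjusted p = 0.0188). Library C at 5 h was close to the controls, and the call was lost in 4 of 13 alternatives (adjusted p 0.0512 to 0.0958), namely with the compared groups only and without CGR8 0 h A or CGR8 5 h A or B.

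The 3 membrane proteins were all higher at 48 h in NIH/3T3 (median log2 fold change 0.54), and 2 of them were lower in CGR8. Over all genes tested, 26.7% were higher and 25.6% lower at 48 h in NIH/3T3, and 12.2% and 15.6% in CGR8. The rise was not general to such genes, since of 12 other lysosomal membrane protein genes 4 were higher and 3 lower in NIH/3T3 (median -0.12). Lamp2, whose product is also a receptor of chaperone-mediated autophagy, lay in NIH/3T3 at 115, 127 and 104 CPM at 0 h, 146, 153 and 142 at 5 h and 188, 201 and 188 at 48 h. It was above the controls in every library at 5 and 48 h (log2 fold change 0.71, SE 0.10, adjusted p = 1.65e-05 at 48 h). In CGR8 it lay at 73.7, 62.4 and 69.1 CPM at 0 h, 37.7, 57.2 and 73.5 at 5 h and 57.4, 37.4 and 47.3 at 48 h. All 48 h libraries were below the controls (log2 fold change -0.54, SE 0.19, adjusted p = 0.0442), but the call was lost in 6 of 14 alternatives (adjusted p 0.0526 to 0.188), namely with library size alone and without CGR8 0 h A, B or C or CGR8 48 h B or C. Mcoln1, the lysosomal calcium channel, lay in NIH/3T3 at 13.4, 12.6 and 13.4 CPM at 0 h, 8.09, 8.6 and 8.82 at 5 h and 18.8, 21.1 and 18.5 at 48 h. It was low at 5 h (log2 fold change -0.59, SE 0.10, adjusted p = 0.000117) and high at 48 h (log2 fold change 0.54, SE 0.09, adjusted p = 0.000165), without overlap. It was also low at 5 h in CGR8, at 19, 14.1 and 15.2 against 24, 25.3 and 24.8 CPM (log2 fold change -0.67, SE 0.13, adjusted p = 0.000398). Lamp1 had log2 fold changes at 48 h of 0.31 (SE 0.07, adjusted p = 0.0018) in NIH/3T3 and -0.36 (SE 0.13, adjusted p = 0.0474) in CGR8. The CGR8 call was lost in 9 of 14 alternatives (adjusted p 0.0511 to 0.208), namely with RLE factors, with DESeq2, without a filter and without CGR8 0 h A, B or C or CGR8 48 h A, B or C.

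Of the MiT/TFE genes, Tfeb alone had a change at 5 h that differed between the lines past the threshold. In CGR8 it lay at 47.4, 55.3 and 43.5 CPM at 0 h, 30.2, 25.4 and 22.1 at 5 h and 51.8, 48.2 and 43.5 at 48 h. Its 5 h libraries were below all others of that line, and its 48 h libraries overlapped the controls (log2 fold change -0.97, SE 0.16, adjusted p = 0.000157, then log2 fold change -0.04, SE 0.16, adjusted p = 0.889). In NIH/3T3 it lay at 7.36, 7.45 and 10.3 CPM at 0 h, 10.9, 9.14 and 10.2 at 5 h and 11.2, 11.1 and 11.2 at 48 h. There the log2 fold change at 48 h was 0.38 (SE 0.14, adjusted p = 0.029), a call lost in 5 of 14 alternatives (adjusted p 0.0639 to 0.127), namely without NIH/3T3 0 h A or B or NIH/3T3 48 h A, B or C. Tfe3 fell at 5 h in both lines. In NIH/3T3 it lay at 18.9, 17 and 16.7 against 24.5, 21.5 and 25.2 CPM, with a log2 fold change of -0.40 (SE 0.12, adjusted p = 0.00912), and in CGR8 the log2 fold change was -0.48 (SE 0.13, adjusted p = 0.00591). At 48 h all 3 genes were higher in NIH/3T3 and none was called in CGR8, while over all genes tested 26.7% and 12.2% were higher. The Tfe3 call at 48 h was lost in 1 of 14 alternatives (adjusted p = 0.0749), namely without NIH/3T3 0 h B. Mitf lay at 7.06, 7.69 and 6.61 CPM at 48 h and 4.91, 5.4 and 3.67 CPM at 0 h in NIH/3T3 (log2 fold change 0.59, SE 0.19, adjusted p = 0.0166). The call was lost without NIH/3T3 0 h C, at an adjusted p of 0.102, and without NIH/3T3 48 h B, at 0.0641.

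Autophagy genes and lysosomal enzymes were set side by side by their counts and medians, with no test of the lists. In NIH/3T3 at 5 h, 5 of 19 autophagy genes were higher and 9 lower (median log2 fold change -0.19), and 2 of 13 enzymes were higher and 8 lower (median -0.41), against a median of -0.01 over all genes, of which 24% were higher and 27.1% lower. From 5 h to 48 h in NIH/3T3, 9 of 19 autophagy genes rose and 9 fell (median -0.03), and 8 of 13 enzymes rose and 2 fell (median 0.52), against 0.02 over all genes, of which 34.1% rose and 31.4% fell. With Ctsf left out, 1 enzyme was higher and 8 lower of 12 at 5 h (median -0.44), and from 5 h to 48 h 8 rose and 1 fell (median 0.54). With Ctsf at 48 h set to 3 counts per library, the latter median over 13 was 0.52. At 48 h against 0 h the medians in NIH/3T3 were -0.02 for autophagy genes, which became 0.05 with scaling by library size alone, and 0.11 for enzymes, which became 0.18. The autophagy median was -0.07 without NIH/3T3 0 h A, -0.06 without NIH/3T3 48 h A and 0.02 without NIH/3T3 0 h C, so that its sign rests on single libraries. The enzyme median was 0.07 without NIH/3T3 0 h A and 0.17 without NIH/3T3 0 h C.

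In CGR8 at 5 h, 3 of 19 autophagy genes were higher and 5 lower (median -0.01), and 3 of 13 enzymes were higher and 4 lower (median -0.10), while over all genes 24.9% were higher and 27.2% lower. The order of these medians depends on the tool, since voom gave -0.193 for autophagy genes and 0.048 for enzymes. At 48 h, 0 of 19 autophagy genes were higher and 5 lower (median -0.22), and 0 of 13 enzymes were higher and 4 lower (median -0.34), against 0.00 over all genes, of which 12.2% were higher and 15.6% lower. DESeq2 called 1 autophagy gene higher at 48 h, and voom 2 autophagy genes and 1 enzyme. One control library decides part of the enzyme values: without CGR8 0 h B the enzyme median was -0.11 at 48 h and 0.06 at 5 h. From 5 h to 48 h, 5 autophagy genes rose and 6 fell (median -0.06), and 2 enzymes rose and 4 fell (median -0.12, and -0.27 without CGR8 48 h A). Over all genes tested, 28.9% rose and 28.6% fell.

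**Figure D4:**
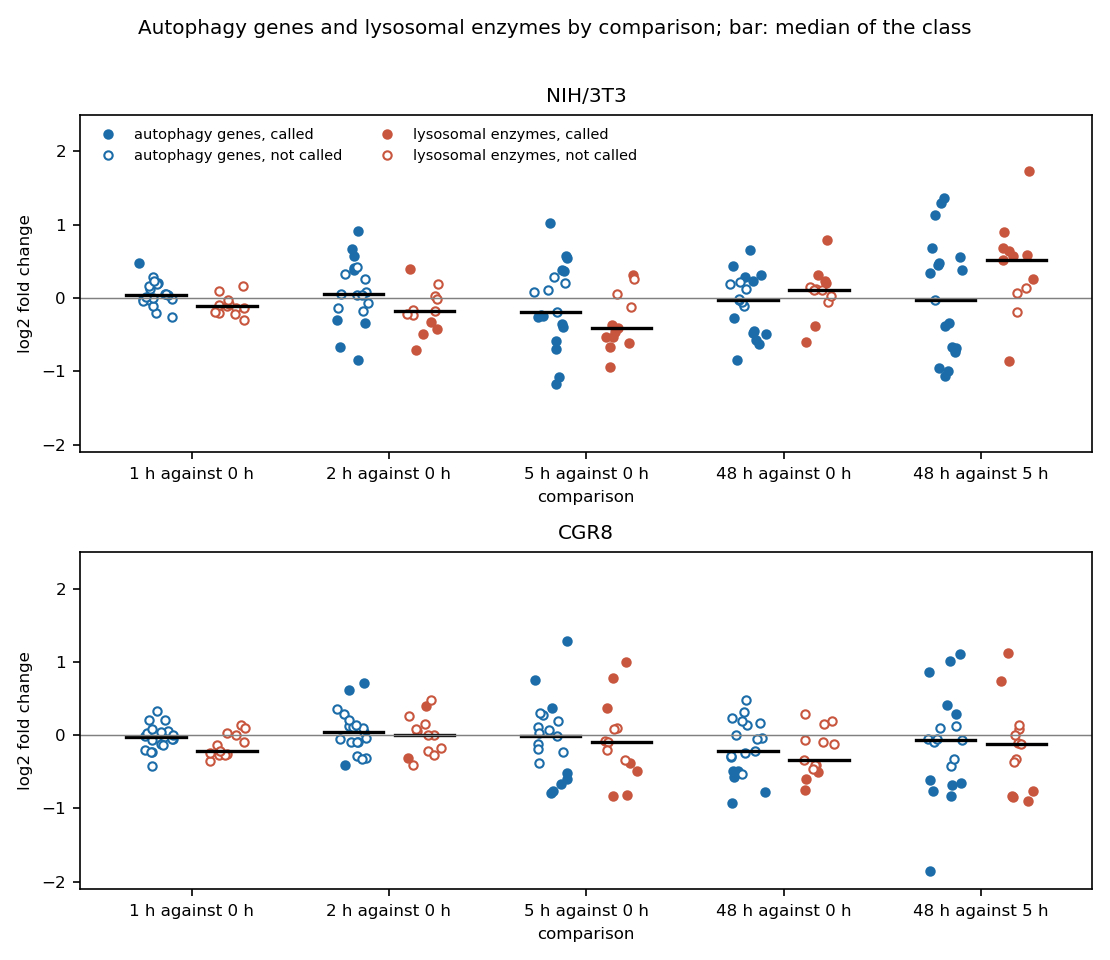
Log2 fold change (vertical axis) of each autophagy gene (blue) and lysosomal enzyme (red) in 5 comparisons per line, filled where the adjusted p was under 0.05, with a black bar at the median of the class. Ctsf, at very low counts in NIH/3T3, is in the median but not drawn there; in NIH/3T3 the enzyme bar lies at -0.41 at 5 h against 0 h and at 0.52 at 48 h against 5 h.

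The lines were compared directly by the interaction of line and time, given as the CGR8 change minus the NIH/3T3 change. At 1 h, 0 of the 38 genes were called by edgeR (0.0171% and 0.142% of all genes tested were higher and lower), with 0 below an unadjusted p of 0.05, and DESeq2 and voom also called 0. At 2 h, 0 were called (0.866% and 1.16%), with 5 below an unadjusted p of 0.05, 0 called by DESeq2 and 2 by voom. At 5 h, 7 were called, 5 with a positive difference (a larger rise or smaller fall in CGR8) and 2 with a negative one (8.18% and 5.09%). This split depends on the scaling: it was 4 and 4 with RLE factors and 2 and 5 with library size alone, which moved the median of all genes by -0.19. The split of all genes moved too. Of all genes called, 61.6% had a positive difference in the main fit, 45.9% with RLE factors and 31.5% with library size alone. Counted without Ctsf in the main fit, the split was 5 and 1.

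The positive differences at 5 h were those of Gabarapl2, given above, Naglu 1.49 (SE 0.30, adjusted p = 0.0012), Wipi1 0.79 (SE 0.19, adjusted p = 0.0062), Nbr1 0.55 (SE 0.15, adjusted p = 0.0159) and Gla 0.55 (SE 0.17, adjusted p = 0.0267). For Wipi1 the CGR8 libraries lay at 3.37, 3.55 and 3.15 CPM at 0 h and 3.64, 4 and 3.71 CPM at 5 h, so the line with the fall was NIH/3T3. The Wipi1 call was lost in 2 of 20 alternatives (adjusted p 0.0615 to 0.0697), namely with library size alone and without CGR8 5 h B. The Nbr1 call was lost in 3 of 20 alternatives (adjusted p 0.0609 to 0.206), namely with library size alone, without a filter and without CGR8 5 h B. The Gla call was lost in 9 of 20 alternatives (adjusted p 0.0587 to 0.286), namely with RLE factors, with library size alone, without a filter and without NIH/3T3 0 h B, NIH/3T3 5 h C, CGR8 0 h A or C or CGR8 5 h A or B. The negative differences were those of Tfeb -1.18 (SE 0.22, adjusted p = 0.000615) and Ctsf. No size is given for Ctsf, because of its low NIH/3T3 counts given above. The calls of Naglu and Tfeb held in all 20 alternatives. Naglu is at low counts in CGR8, where 5 h library C was close to the controls. Its own call at 5 h in CGR8 was lost in 4 of 13 alternatives.

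At 48 h, 1 gene had a positive difference and 9 a negative one (9.78% and 12.1% of all genes tested). Among the 9 were the 3 membrane protein genes Lamp2 -1.27 (SE 0.22, adjusted p = 8.96e-05), Mcoln1 -0.80 (SE 0.15, adjusted p = 0.000275) and Lamp1 -0.69 (SE 0.15, adjusted p = 0.00122). The enzymes among them were Hexa -1.09 (SE 0.20, adjusted p = 0.000246), Ctsa -0.77 (SE 0.17, adjusted p = 0.00152), Ctsd -0.69 (SE 0.23, adjusted p = 0.0294) and Psap -0.55 (SE 0.13, adjusted p = 0.00215). From autophagy there were 2, Sqstm1 -0.77 (SE 0.18, adjusted p = 0.00179) and Atg13 -0.53 (SE 0.14, adjusted p = 0.00636). The Ctsd call was lost in 7 of 20 alternatives (adjusted p 0.0517 to 0.135), namely without NIH/3T3 0 h A or B, NIH/3T3 48 h A or B, CGR8 0 h B or CGR8 48 h B or C. The Atg13 call was lost in 1 of 20 alternatives (adjusted p = 0.0532), namely without a filter. The other 7 of these 9 were kept in all 20 alternatives. The single gene in the other direction was Ctsf, whose NIH/3T3 libraries are at 0 at 48 h, so that its fitted difference is no measure of size. Counted without Ctsf, 0 genes had a positive difference and 9 a negative one. Of the 19 autophagy genes 2 were called (median difference -0.09), of the 13 enzymes 5 (median -0.34, and 4 of 12 with a median of -0.36 without Ctsf) and of the 3 membrane protein genes 3 (median -0.80), against a median of -0.03 over all genes.

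**Figure D5:**
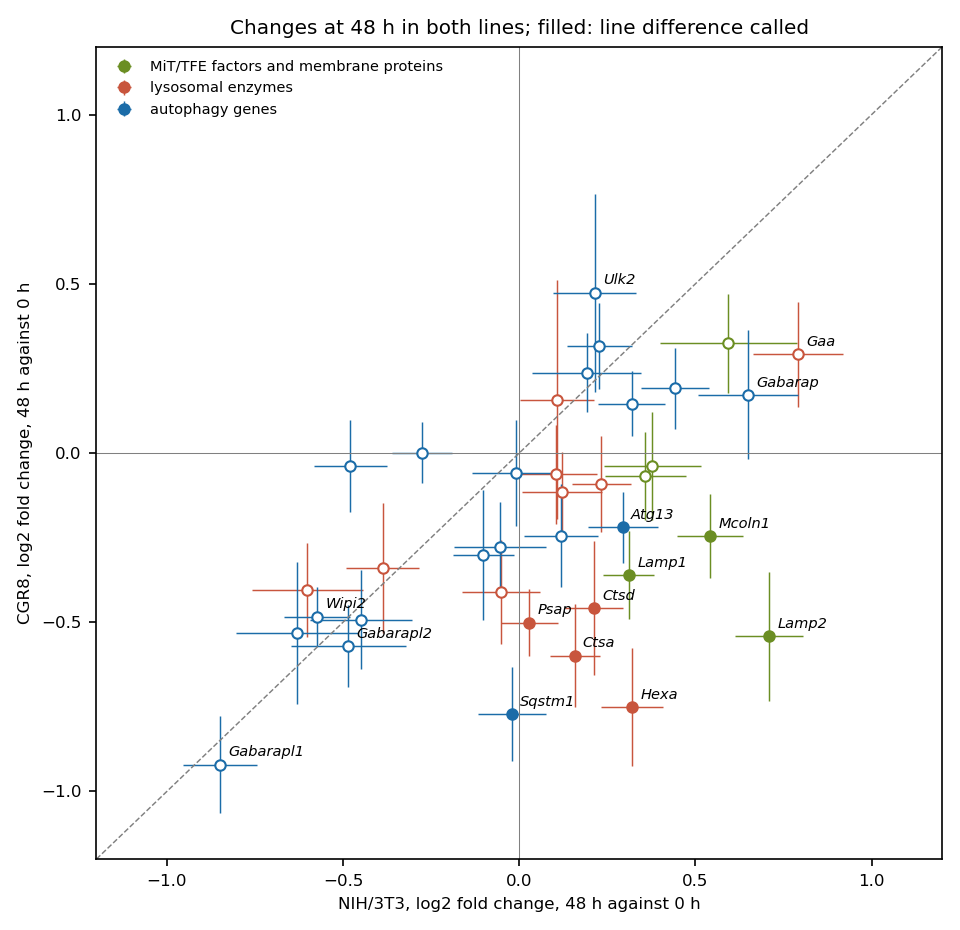
Log2 fold change at 48 h against 0 h in NIH/3T3 (horizontal axis) and CGR8 (vertical axis) for 37 of the genes, with standard errors as bars and the dashed line marking equal change; Ctsf is left out because its NIH/3T3 libraries are at 0. Filled points are the 9 genes whose change differed between the lines past the threshold, all below the dashed line.

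A wider list of 113 further genes of the same processes was counted beside the 38. The shares over all genes tested, higher and lower, were 24% and 27.1% at 5 h and 26.7% and 25.6% at 48 h in NIH/3T3, and 24.9% and 27.2% at 5 h and 12.2% and 15.6% at 48 h in CGR8. Of 24 tested genes of other lysosomal enzymes and lumen proteins, 0 were higher and 14 lower in NIH/3T3 at 5 h and 14 were higher and 2 lower at 48 h. In CGR8, 2 of 26 were higher and 9 lower at 5 h, and 1 was higher and 6 were lower at 48 h. Of 12 genes of other lysosomal membrane proteins, 1 was higher and 5 lower at 5 h in NIH/3T3. At 48 h there, 4 of them were higher and 3 lower (median log2 fold change -0.12). Of 16 V-ATPase subunits, which acidify the lysosome, 6 were higher and 1 lower at 5 h in NIH/3T3, and 5 higher and 3 lower in CGR8. Of 27 further autophagy genes, 5 were higher and 6 lower at 5 h in NIH/3T3 and 11 were higher and 6 lower at 48 h, and the 5 h counts lie near the shares over all genes. In CGR8 the same 27 divided into 7 higher and 13 lower at 5 h and 5 higher and 5 lower at 48 h. Of the genes of nutrient sensing on the lysosome, 9 of 16 were higher and 2 lower at 48 h in NIH/3T3, and 3 of 18 were higher and 2 lower in CGR8.

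The largest called rises and falls on that list in NIH/3T3 are given here for genes that averaged 10 CPM or more in 1 of the compared groups. Ctns, the cystine exporter of the lysosome, went from 9.07 ± 0.952 CPM at 0 h (mean and SD, n = 3) to 25.4 ± 0.844 CPM at 48 h (log2 fold change 1.45, SE 0.11, adjusted p = 3.71e-08). Epg5, a tether for fusion of autophagosomes with lysosomes, went from 18.7 ± 1.34 CPM to 41 ± 1.56 CPM (log2 fold change 1.10, SE 0.21, adjusted p = 0.00031). Bnip3, a mitophagy receptor, fell from 15 ± 0.505 CPM to 6.25 ± 0.464 CPM (log2 fold change -1.30, SE 0.11, adjusted p = 1.12e-07). Atg4d, a protease of ATG8 proteins, was low at both 5 h and 48 h, with log2 fold changes of -1.15 (SE 0.19, adjusted p = 9.15e-05) and -1.43 (SE 0.19, adjusted p = 1.16e-05). At 5 h Atg2a, a lipid transfer protein of the growing membrane, fell with a log2 fold change of -1.10 (SE 0.12, adjusted p = 3.41e-06). Vmp1, a membrane protein needed for autophagosome formation, and Atp6v0b, a V-ATPase subunit, rose at 5 h with log2 fold changes of 0.88 (SE 0.12, adjusted p = 2.32e-05) and 0.79 (SE 0.12, adjusted p = 5.34e-05).

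By the same rule the rises at 5 h in CGR8 were those of Fundc1, a mitophagy receptor, with a log2 fold change of 1.07 (SE 0.14, adjusted p = 1.37e-05), and Lamtor5, a subunit of the Ragulator scaffold, with one of 0.96 (SE 0.15, adjusted p = 8.74e-05). Rragd, a Rag GTPase, fell from 72.2 ± 6.78 CPM to 31.5 ± 6.71 CPM (log2 fold change -1.25, SE 0.14, adjusted p = 4.35e-06), and all 15 NIH/3T3 libraries were at 0 for it. Fnip2, a folliculin partner, fell with a log2 fold change of -1.35 (SE 0.18, adjusted p = 2.09e-05). At 48 h 2 cysteine proteases of the lysosome fell, Ctsc with a log2 fold change of -1.41 (SE 0.16, adjusted p = 1.15e-05) and Lgmn with one of -1.17 (SE 0.13, adjusted p = 9.15e-06). The amino acid sensor gene Slc38a9 had a log2 fold change of 0.68 (SE 0.14, adjusted p = 0.00179) and Epg5 one of 0.68 (SE 0.21, adjusted p = 0.026). The call for Epg5 was lost in 4 alternatives, with adjusted p of 0.058 with library size alone and 0.0949, 0.0538 and 0.0928 without CGR8 0 h B, 48 h A and 48 h C.

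Transcript length and GC content moved with the changes of all genes. Across all genes tested, Spearman's rho of the log2 fold change at 5 h was -0.29 with length and -0.38 with GC content in NIH/3T3, and -0.48 and -0.22 in CGR8. Across the 38 genes the values were -0.23 and -0.42 in NIH/3T3 and -0.20 and -0.33 in CGR8, and genes are not independent replicates. With length, rho was positive at 48 h against 0 h. It was 0.283 over all genes and 0.365 over the 38 in NIH/3T3, and 0.113 and 0.515 in CGR8. From 5 h to 48 h it was 0.415 and 0.349 in NIH/3T3, and 0.486 and 0.361 in CGR8. With GC content, rho from 5 h to 48 h was 0.225 and 0.313 in NIH/3T3, and 0.06 and 0.194 in CGR8. Ulk1, which fell, has a transcript of 5213 bases with 58.0% GC, and Gabarapl2, which rose, 1677 bases with 45.3%. Atg12, at 4765 bases, also rose. The part of length and GC content in these results was not tested. Exons of 14 of the 38 genes overlap those of another gene, 3 of them on the same strand (Ctsd, Ctsl and Glb1), and the use of strand in counting is not given in the sources used here, so their counts may hold reads of the neighbour.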

How the data were processed

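RNA was sequenced with a stranded mRNA ligation kit, per the labels' protocols, in 30 libraries. The authors deposited whole-number counts per gene, and STAR, DESeq2 and GRCm39 are named, with no role, per the submitters' processing notes. The counting tool, its use of strand and the annotation release are not given in the sources used here. Library totals were 18216993 to 30503109 counts, which sets the precision at low counts. The SEs were derived from the quasi-likelihood tests, which take in the spread between libraries. Identifiers were matched to symbols for 51880 of 57186 rows (90.7%).

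Genes passing filterByExpr (minimum count 10, minimum total 15) were fitted in edgeR 4.0.16 (R 4.3.3) with TMM factors and quasi-likelihood tests over all genes, with Benjamini-Hochberg adjustment, on the 15 libraries of each line, and on all 30 for differences between lines. Levels are CPM scaled by the TMM factors of the 30 libraries, relative to the library total. Alternatives were RLE factors, library size alone, DESeq2 1.42.0, no filter, a minimum mean of 5 CPM, the compared groups only, a replicate block, each library left out, and, chosen after seeing the data, leaving out Ctsf and voom with sample quality weights (limma 3.58.1). The genes and lists were chosen with earlier results of these data known. Full values are given for genes called with a log2 change of 1 or more in either direction, the largest called change of each role at 5 and 48 h, the largest line differences, and, of the wider list, the 2 largest called rises and falls per line and time with at least 10 CPM, and others were named after their values were seen. Same-lettered libraries deviated together, with a correlation over 0.1, in 9 of 30 pairs in NIH/3T3 and 13 of 30 in CGR8, so letters were not taken to pair libraries. The fitting code was tested on simulated data. No 2 replicates agreed within counting noise. The reference annotation used for lengths and overlaps was GRCm38, and near copies were sought with blastn 2.17.0+.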

Additional observations from a re-analysis of the deposited data

Results flagged for a closer look

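The genes below stood out because the test of the difference itself found that their response to CHX differed between the lines, with an adjusted p under 0.05 in edgeR's quasi-likelihood interaction test. Values are the CGR8 log2 fold change minus that of NIH/3T3.

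At 5 h the difference was -1.18 for Tfeb, -2.55 for Ctsf, 0.55 for Gla, 1.49 for Naglu, 0.79 for Wipi1, 0.79 for Gabarapl2 and 0.55 for Nbr1. At 48 h it was -0.69 for Lamp1, -1.27 for Lamp2, -0.80 for Mcoln1, -0.77 for Ctsa, -0.69 for Ctsd, 4.68 for Ctsf, -1.09 for Hexa, -0.55 for Psap, -0.53 for Atg13 and -0.77 for Sqstm1. Ctsf was also flagged, with a negative difference at 5 h and a positive one at 48 h. Both rest on NIH/3T3 libraries with few or 0 counts, so no size is given. Naglu has few counts in CGR8.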

How the results depend on the processing

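Of 742 recomputed values of 52 named gene results, 715 kept their direction and their side of the threshold, 27 in 7 results kept the direction but lost the call, and 0 reversed. These results were chosen as called and large in the same data, so this share does not describe the smaller calls. Outside them, the calls of Uvrag and Atg7 at 5 h in NIH/3T3 were each lost in 10 of 14 alternatives. The replicate block gave, over the times in order, 1, 19, 26 and 24 of the 38 genes called in NIH/3T3 and 0, 7, 19 and 12 in CGR8, and 9 and 11 line differences at 5 and 48 h, all within 1.5 times the counts without it. Voom with sample quality weights called 9 genes at 1 h and 29 at 2 h in NIH/3T3, 3 at 1 h, 11 at 2 h and 21 at 48 h in CGR8, and 2, 18 and 19 line differences at 2, 5 and 48 h. The cause was not tested, and the share of all genes that voom called is not given here. DESeq2 called 2 at 1 h in NIH/3T3. With Ctsf left out, every count of genes called stayed within 1.5 times and every enzyme median in NIH/3T3 within the spread between replicates. With only the compared groups in the fit, which leaves fewer libraries for the spread, 0 were called at 1 h in NIH/3T3 and 3 at 2 h in CGR8.

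With library size alone the median was -0.22 for enzymes in NIH/3T3 at 2 h, 0.054 for autophagy genes and 0.18 for enzymes at 48 h, and 0.043 and 0.59 at 48 h against 5 h. In CGR8 at 1 h it was 0.02 and -0.17, and without a filter -0.073 and -0.27. The enzyme median in NIH/3T3 at 48 h was 0.14 with a minimum mean of 5 CPM. Voom gave enzyme medians of -0.38 at 5 h and 0.14 at 48 h in NIH/3T3, and of -0.086, 0.048 and -0.18 at 1, 5 and 48 h in CGR8, and an autophagy median of -0.19 in CGR8 at 5 h.

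With 1 library left out, the number called was 0 to 1 at 1 h in NIH/3T3, 2 to 9 at 2 h in CGR8 and 7 to 11 at 48 h in CGR8. Enzyme medians ranged from -0.21 to -0.13 at 2 h, -0.45 to -0.33 at 5 h and 0.065 to 0.17 at 48 h in NIH/3T3, and from -0.27 to -0.068 at 1 h, -0.19 to 0.064 at 5 h, -0.46 to -0.11 at 48 h and -0.27 to -0.086 at 48 h against 5 h in CGR8. The autophagy median in NIH/3T3 at 48 h ranged from -0.072 to 0.021. Depth limits Ctsf in NIH/3T3 and Ulk2 and Naglu in CGR8, all under 1 CPM at 0 h.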
